A study of Mus musculus with 8 samples.

Results

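The 9 genes described here encode elastin and proteins of the microfibrils and the elastin-microfibril interface: Eln, Mfap2, Mfap5, Mfap4, Emilin1, Fbln1, Fbln2, Fbln5 and Efemp1. They are 9 of 19938 genes measured by a probe set with a single gene symbol, and each of the 9 was read by 1 probe set. Hearts of 8 mice were profiled on 1 Affymetrix whole-transcript array each, in 4 groups of 2 animals. All mice were 9 weeks old and on a C57Bl6 background. They were wild type (WT) or homozygous for Gata4 S105A, a serine-to-alanine substitution in the cardiac zinc-finger transcription factor GATA4. The substituted serine is a known phosphorylation site of the extracellular signal-regulated kinases. Treated mice received PE for 5 days at a daily dose of 100 mg per kg through a subcutaneous osmotic pump. PE is expanded to pseudoephedrine in the labels, and whether another adrenergic agonist of this abbreviation was meant is not settled there. The controls are titled untreated, while the treatment protocol names saline. The tissue field names the ventricle and the titles the whole heart.

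Elastic fibres give vessel walls, valves and the heart's connective tissue their recoil. A core of crosslinked elastin is laid down on microfibrils, which are polymers of fibrillin decorated with small glycoproteins, and fibulins and EMILINs sit between core and microfibril. Lysyl oxidases crosslink the elastin, and microfibrils also hold latent transforming growth factor beta (TGF-beta) through its binding proteins. In the myocardium these genes are expressed mainly by fibroblasts and vascular smooth muscle cells.

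Promoter sequences were in the RefSeq-derived table for 6 of the 9 genes (GRCm38.p6); Mfap5, Mfap4 and Eln had none. The 250 bases before the transcription start are shown for the 3 genes with a single listed start, Fbln2, Emilin1 and Efemp1. Of these, Fbln2 and Emilin1 read higher with PE and Efemp1 did not. All 3 windows are on the plus strand, at chr6:91212514-91212763, chr5:30913536-30913785 and chr11:28852955-28853204 in that order. Capitals mark matches to the motifs searched on both strands.
Fbln2: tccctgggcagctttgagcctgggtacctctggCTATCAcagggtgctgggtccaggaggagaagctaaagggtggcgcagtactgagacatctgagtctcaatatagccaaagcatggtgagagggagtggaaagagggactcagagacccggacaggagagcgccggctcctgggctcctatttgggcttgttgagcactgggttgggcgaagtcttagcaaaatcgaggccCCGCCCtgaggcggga
Emilin1: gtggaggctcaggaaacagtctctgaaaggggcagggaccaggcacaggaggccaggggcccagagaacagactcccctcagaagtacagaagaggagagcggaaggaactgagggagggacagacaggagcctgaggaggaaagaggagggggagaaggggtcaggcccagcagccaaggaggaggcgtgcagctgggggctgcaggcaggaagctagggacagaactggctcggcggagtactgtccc
Efemp1: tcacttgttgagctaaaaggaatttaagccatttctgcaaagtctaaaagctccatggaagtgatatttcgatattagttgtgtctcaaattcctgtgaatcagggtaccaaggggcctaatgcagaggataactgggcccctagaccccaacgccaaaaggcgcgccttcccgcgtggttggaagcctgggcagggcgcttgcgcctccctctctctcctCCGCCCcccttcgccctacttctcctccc

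The GATA words searched were AGATAA as well as AGATAG and likewise TGATAA as well as TGATAG, which 26.5% of the 32851 promoters of the same length held. Fbln2 had 1 match, which began 217 bases before the start, and Emilin1 and Efemp1 had none. The GC box GGGCGG, found in 32.7% of promoters, matched once in Fbln2 and once in Efemp1, beginning 16 and 29 bases before the start. The AP-1 word TGACTCA (4.46% of promoters), the MCAT word CATTCC (12.6%) and the CArG box (1.47%) were absent from these 3 windows. No searched motif overlapped another there. A match is a description of letters and not a binding site.

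The arrays were alike in overall level, with medians of 6.18 to 6.23 on the log2 scale. On the first principal component of all genes, PE array 3 (WT) lay at 53.3 and PE array 7 (S105A) at 25.1, whereas the other 6 arrays lay between -20.8 and -0.415. Gata4 mRNA lay between 9.92 and 10.16 on the 8 arrays, and its probe set does not read the substitution. Cardiomyocyte markers such as Tnnt2 (13.71 to 13.83) were high on all arrays, in a table that ran from 2.63 to 14.45. Of 4 atrial markers, Sln lay at 4.51 to 4.73, Myl7 at 5.53 to 6.02, Myl4 at 8.02 to 8.92 and Nppa at 10.73 to 13.95. With 2 arrays a group, the number of arrays limits the precision of every comparison.

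The first comparison asked how PE changed gene expression, averaged over the genotypes. Elastin, both microfibril-associated glycoprotein genes Mfap2 and Mfap5, Mfap4, Emilin1, Fbln2 and Fbln5 read higher on all 4 PE arrays than on all 4 untreated arrays. These are 7 of the 9 genes, where 6.70% of all genes had this pattern. Mfap5 had the largest difference, 4.39-fold, and Fbln1 the smallest, while Efemp1 had a negative difference. The median over the 9 genes was 0.97 on the log2 scale, against -0.02 over all genes, and 4 of the 9 had a difference of 2-fold or more, against 0.948% of all genes. The difference was above 0 in 8 of the 9, against 44.0% of all genes, and 0 of the 9 had all PE arrays below all untreated arrays (6.15% of all genes). By limma 0 of the 9 passed an adjusted p of 0.05, where 1 gene of 19938 (0.00502%) did. At an unadjusted p under 0.05, 6 of the 9 were higher and 0 lower, against 9.31% and 7.44% of all genes. The count at an unadjusted p under 0.05 in either direction fell without array 1, 2, 5, 6 or 7. It rose without array 3 or 4. The share of all genes at this threshold was not counted in those fits.

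**Figure D1:**
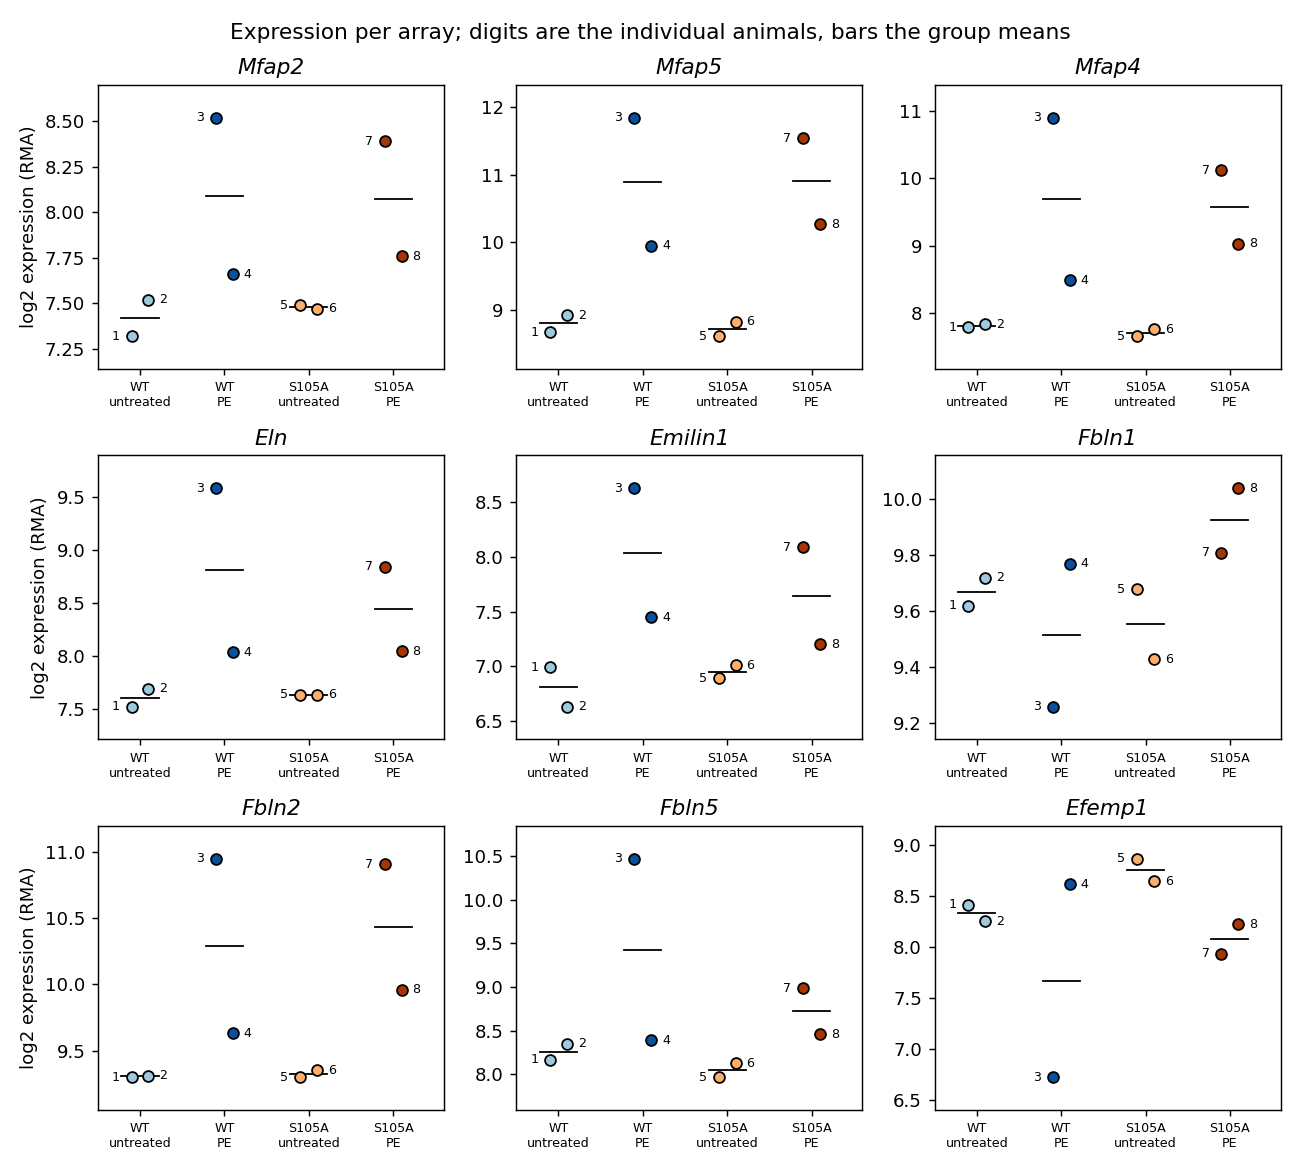
Log2 expression (vertical axis) of the 9 genes on each array, by group (horizontal axis); points are single animals with their number and bars are group means of 2 arrays. In 7 panels both PE groups lie above all untreated arrays with arrays 3 and 7 at the top, while Fbln1 and Efemp1 have array 3 at the bottom.

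Eln encodes tropoelastin, the soluble precursor of the elastic core (probe set 10534343). Untreated hearts read 7.52 and 7.69 in WT and 7.63 and 7.63 in S105A. With PE the values were 9.58 and 8.03 in WT and 8.84 and 8.04 in S105A. All PE arrays were above all untreated arrays, but arrays 4 and 8 were much closer to the untreated level than arrays 3 and 7. The averaged difference was 1.00 log2 units (SE 0.34, 95% interval 0.19 to 1.82, limma adjusted p = 0.281).

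Mfap2 and Mfap5 encode MAGP-1 and MAGP-2, small glycoproteins that bind fibrillin along the microfibril. For Mfap5 (probe set 10541496) the untreated arrays read 8.68 and 8.93 in WT and 8.62 and 8.83 in S105A. The PE arrays read 11.84 and 9.95 in WT and 11.54 and 10.27 in S105A, so even the lowest PE array stood about 1 log2 unit above the highest untreated array. Mfap5 had the smallest p of the 9 genes, with a difference of 2.13 (SE 0.45, interval 1.07 to 3.20, adjusted p = 0.275 by limma). Mfap2 (probe set 10509901) was at 7.32 and 7.52 in WT and 7.49 and 7.47 in S105A without PE. With PE it was at 8.52 and 7.66 in WT and at 8.39 and 7.76 in S105A. The groups did not overlap, although array 4 exceeded the highest untreated array only slightly. Its difference of 0.63 (SE 0.22, 1.55-fold, adjusted p = 0.282 by limma) was well below that of Mfap5.

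Mfap4 encodes a fibrinogen-domain glycoprotein that binds elastin and microfibrils and is abundant in vessel walls (probe set 10376778). It stood within 7.66 to 7.84 on the 4 untreated arrays. The PE values were 10.90 and 8.49 in WT and 10.12 and 9.03 in S105A, all above the untreated arrays. The averaged difference of 1.87 (SE 0.51, 3.66-fold, interval 0.65 to 3.09, limma adjusted p = 0.275) was the second largest of the 9.

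Emilin1 encodes a glycoprotein at the elastin-microfibril interface that restrains the maturation of TGF-beta (probe set 10520604). Untreated values were 6.99 and 6.63 in WT and 6.89 and 7.01 in S105A, and PE values were 8.63 and 7.45 in WT and 8.09 and 7.20 in S105A. The groups did not overlap, with array 8 the lowest of the PE arrays. The difference was 0.97 (SE 0.30, 1.95-fold, limma adjusted p = 0.277).

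The fibulins did not behave alike. Fbln2, which encodes a fibulin of vessel walls and endocardial cushions that binds elastin and fibrillin (probe set 10540085), lay within 9.30 to 9.35 on the untreated arrays. It read 10.95 and 9.63 with PE in WT and 10.91 and 9.96 in S105A, with no overlap between treated and untreated. The difference was 1.05 (SE 0.32, 2.07-fold, limma adjusted p = 0.277). Fbln5 encodes the fibulin that brings elastin onto microfibrils during fibre assembly (probe set 10402211). It read 8.17 and 8.35 in WT and 7.97 and 8.13 in S105A without PE. With PE it read 10.47 and 8.39 in WT and 8.99 and 8.46 in S105A. The treated and untreated arrays did not overlap, but array 4 exceeded array 2 only by a few hundredths and array 3 stood far above all others. The averaged difference was 0.92 (SE 0.42, interval -0.08 to 1.92, limma adjusted p = 0.316).

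Fbln1 encodes the founding member of the fibulins, a fibronectin- and elastin-binding protein (probe set 10425945). Its untreated values were 9.62 and 9.72 in WT and 9.68 and 9.43 in S105A, and its PE values 9.26 and 9.77 in WT and 9.81 and 10.04 in S105A. Array 3 was the lowest of the 8 and array 8 the highest, so treated and untreated arrays overlapped. The difference of 0.11 (SE 0.13, interval -0.20 to 0.42) was within the spread between animals (limma adjusted p = 0.694), and it was -0.02 without array 4.

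Efemp1 encodes fibulin-3, a fibulin found in fascia, vessel walls and the retina's basement membrane (probe set 10374777). It read 8.42 and 8.26 in untreated WT and 8.87 and 8.65 in untreated S105A hearts. With PE it read 6.73 and 8.62 in WT and 7.94 and 8.23 in S105A. Array 3 was by far the lowest of the 8, whereas array 4 stood above both untreated WT arrays. In S105A both PE arrays were below both untreated arrays, which 25.2% of all genes also showed. The averaged difference was -0.67 (SE 0.37, interval -1.56 to 0.22, limma adjusted p = 0.377).

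The other comparisons took the genotypes apart. In WT hearts 7 of the 9 genes read higher on both PE arrays than on both untreated arrays, against 22.7% of all genes, and 0 of the 9 lower (23.5% of all genes). The difference was above 0 in the same 7 (48.9%) and 2-fold or more in 5 (1.37%), with a median of 1.17. Mfap5 (2.09, SE 0.63), Mfap4 (1.88, SE 0.72), Emilin1 (1.23, SE 0.42) and Eln (1.20, SE 0.48) had an unadjusted p under 0.05, as 5.99% of genes did in this direction, and 0 of the 9 did in the lower direction (5.76%). In either direction this count of 4 fell without array 1, 2, 3, 5 or 6 and rose without array 4. The share of all genes at this threshold was not counted in those fits. The smallest limma adjusted p of the 9 was 0.419, and 1 gene of 19938 (0.00502%) passed. Fbln5 (1.17, SE 0.59), Fbln2 (0.99, SE 0.45) and Mfap2 (0.67, SE 0.30) lay higher with intervals that reached below 0. Fbln1 (-0.16, SE 0.18) and Efemp1 (-0.66, SE 0.53) had negative differences. Both turned positive without array 3, to 0.10 and 0.28, and the median over the 9 genes was then 0.33.

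In S105A hearts 8 of the 9 genes read higher on both PE arrays, against 20.2% of all genes, and their difference was above 0, as in 43.6% of all genes. The median difference was 0.70. The differences were 2.18 (SE 0.63) for Mfap5, 1.87 (SE 0.72) for Mfap4 and 1.11 (SE 0.45) for Fbln2, the 3 with an unadjusted p under 0.05 (3.09% of all genes in this direction, 2.77% in the lower) and also the 3 with a difference of 2-fold or more (0.757%). In either direction the count at an unadjusted p under 0.05 fell without array 1, 2, 5, 6 or 7. It rose without array 3, 4 or 8. The share of all genes was not counted in those fits, so whether these shifts are particular to the 9 genes is not known. Eln was at 0.81 (SE 0.48), Emilin1 at 0.70 (SE 0.42), Fbln5 at 0.67 (SE 0.59), Mfap2 at 0.60 (SE 0.30) and Fbln1 at 0.37 (SE 0.18). Efemp1 was at -0.67 (SE 0.53). By limma 0 of the 9 passed an adjusted p of 0.05, with 0.765 the smallest, and 0% of all genes did. The median was 0.41 without array 7 and 1.15 without array 8.

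**Figure D2:**
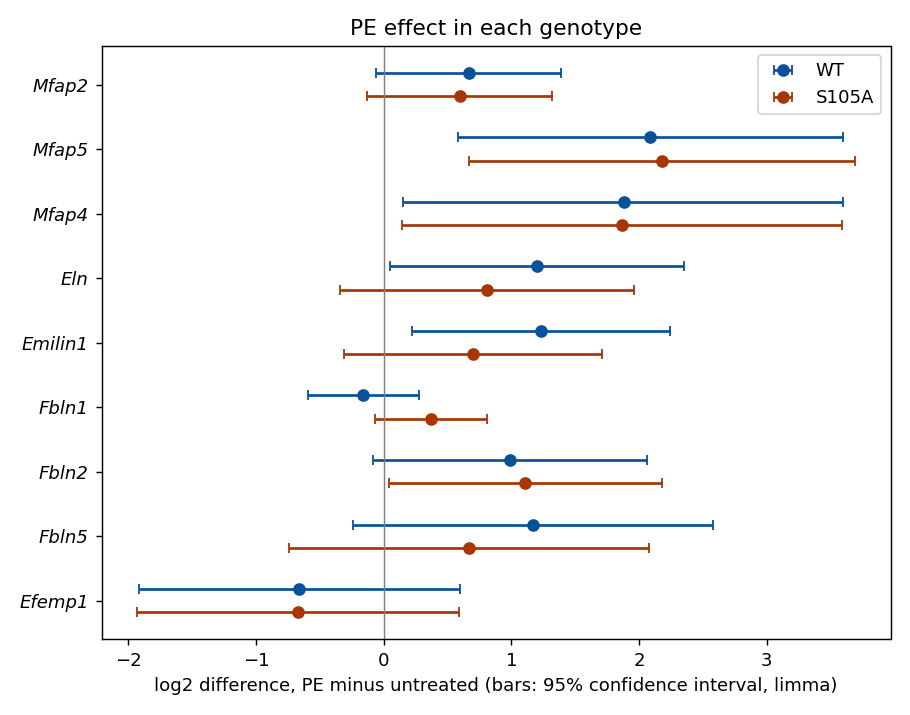
Log2 difference between PE and untreated hearts (horizontal axis) for each gene in WT and in S105A, with the 95% confidence interval from limma. The WT and S105A estimates of Mfap5 (2.09 and 2.18) and Mfap4 (1.88 and 1.87) lie side by side, and the intervals of both genotypes overlap for all 9 genes.

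Whether the PE effect differed between genotypes was tested as an interaction. By limma 0 of the 9 genes passed at an adjusted p of 0.05 and 0 at an unadjusted p under 0.05, which 2.42% of all genes reached. The second count rose without array 3 or array 4, for which no share of all genes at this threshold was taken. Without array 3 the median over the 9 genes was 0.39, and without array 4 it was -0.86. The difference in PE effect, S105A minus WT, was 0.09 for Mfap5 (95% interval -2.05 to 2.22), -0.01 for Mfap4 (-2.45 to 2.43) and -0.39 for Eln (-2.01 to 1.24). These intervals hold changes of several fold in either direction, so the data do not show equal responses. Fbln1 had the narrowest interval, -0.10 to 1.15 around 0.52, with array 3 the low value in WT. Without PE, the genotype differences ran from -0.21 for Fbln5 to 0.42 for Efemp1, with a median of 0.02. Under PE they ran from -0.71 for Fbln5 to 0.41 for Fbln1 and Efemp1, with a median of -0.02. In each of these, 0 of the 9 had an unadjusted p under 0.05 (4.96% of all genes without PE and 2.68% with PE), and by limma 0% of all genes passed the adjusted threshold. Without PE, Efemp1 read higher on both S105A than on both WT arrays (21.8% of all genes) and Mfap4 and Fbln5 lower (22.7%). With PE, Fbln1 read higher on both S105A arrays (10.5%) and 0 of the 9 lower (13.0%). Averaged over treatments, the differences ran from -0.46 for Fbln5 to 0.42 for Efemp1, and again 0 of the 9 had an unadjusted p under 0.05, against 4.99% of all genes, and 0 passed the adjusted threshold (0.00502%). Leaving out array 4 changed these calls, but it leaves array 3 as the only WT array with PE, which is then assumed to vary like the other groups. In that fit Fbln5 was at -1.75 (limma adjusted p = 0.0192) and Efemp1 at 1.35 (0.0192) under PE, 2 of the 9 past the threshold against 3.57% of all genes. Averaged over treatments and without array 4, Fbln5 was at -0.98 (0.0324) and Efemp1 at 0.89 (0.0256), against 1.13% of all genes. Without array 4 both counts at an unadjusted p under 0.05 rose, and the medians were -0.94 under PE and -0.42 averaged. Without array 3, array 4 was the only WT array with PE. The count under PE then rose and the averaged count did not, with medians of 0.41 and 0.22. No share of all genes at an unadjusted p was taken in these fits.

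The PE animals of each group differed widely. Array 3 was the highest of the 8 in 7 of the 9 genes, against 23.4% of all genes. It exceeded array 4 by 0.87 (Mfap2) to 2.41 (Mfap4) log2 units in the 7 genes that read higher with PE, and array 7 exceeded array 8 by 0.53 (Fbln5) to 1.28 (Mfap5). For Efemp1 array 3 differed from array 4 by -1.88, and array 7 from array 8 by -0.30. For Fbln1 the corresponding values were -0.51 and -0.23. Array 3 was above array 4 in 46.8% of all genes and array 7 above array 8 in 44.5%. A gap of at least 1 was found in 6 of the 9 genes between arrays 3 and 4 (2.07% of all genes) and in 2 between arrays 7 and 8 (0.777%). In each of the 9 genes both differences had the same sign, as in 66.6% of all genes. The order 3, 7, 8, 4 with all untreated arrays below was found in 6 of the 9 genes (Mfap2, Mfap5, Mfap4, Eln, Fbln2 and Fbln5), against 1.67% of all genes.

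**Figure D3:**
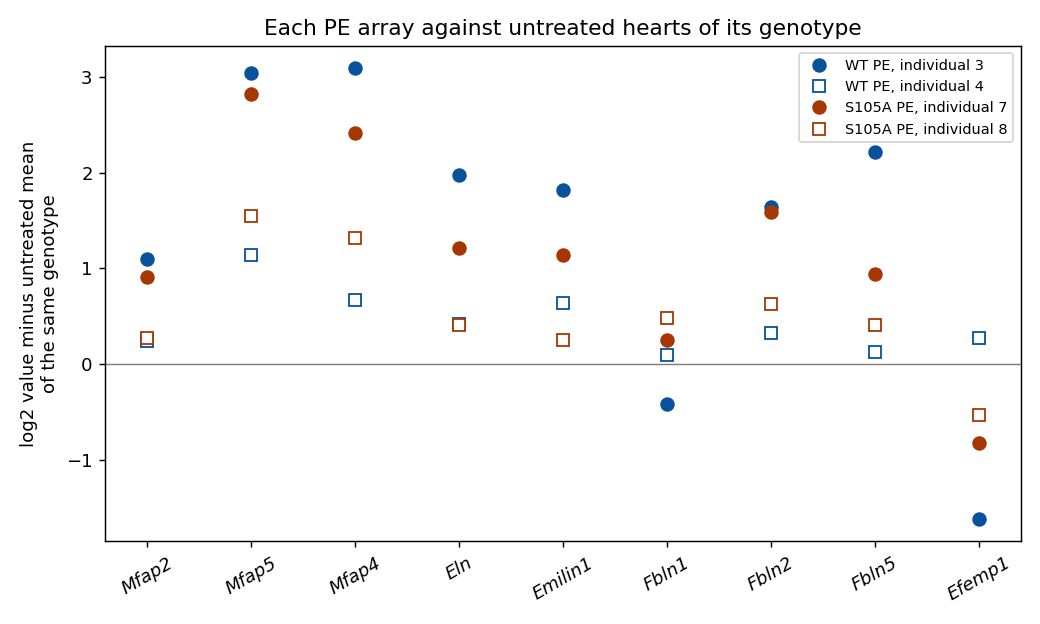
Log2 value of each PE array minus the mean of the 2 untreated arrays of its genotype (vertical axis), by gene; filled circles are arrays 3 and 7 and open squares arrays 4 and 8. Within each genotype the circle lies above the square for 7 genes and below it for Fbln1 and Efemp1.

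Without array 3, the averaged differences of the 7 higher genes ran from 0.40 for Fbln5 to 1.66 for Mfap5, and 0 of the 9 passed the threshold (0.0251% of all genes). Leaving out arrays 3 and 7 lowered the averaged differences and also removed the spread within PE groups, so that the estimated spread came from the untreated arrays alone. Mfap5 was then at 1.34 (limma adjusted p = 0.00510), Mfap4 at 1.00 (0.00328) and Fbln2 at 0.48 (0.0400), which made 3 of the 9 past the threshold, against 0.687% of all genes. In S105A alone Mfap5 (1.54, 0.0281) and Mfap4 (1.32, 0.0107) passed, 2 of the 9 against 0.150%, and in WT 0 of the 9 did, against 0.291%. The averaged median over the 9 genes was 0.42 without these arrays. With array 4 alone left out, 8 of the 9 passed in the averaged comparison and 8 in WT, but so did 20.7% and 17.8% of all genes, with array 3 standing alone for WT with PE. In that fit Efemp1 was at -1.14 averaged (limma adjusted p = 0.00467) and at -1.60 in WT (0.00557). The direction of Efemp1 in WT rested on array 3. For the 7 higher genes all PE arrays exceeded all untreated arrays. Leaving out a single array therefore could not change the sign of their PE differences, averaged or in either genotype.

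Other genes of the pathway were taken from 6 lists of 39 genes, of which 35 were measured; Fbn1, Loxl2, Efemp2 and Fkbp10 were not analysed here. Averaged over genotypes, 27 of the 35 lay higher with PE and 8 lower, where 44.0% of all genes had a difference above 0. The median over the 35 was 0.40, against -0.02 over all genes. By limma 0 passed an adjusted p of 0.05, while 16 had an unadjusted p under 0.05, all in the higher direction (9.31% of all genes). In 17 of the 35 all PE arrays exceeded all untreated arrays (6.70% of all genes), and in 0 were all PE arrays lower.

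Among the crosslinking enzymes, all 4 measured lysyl oxidase genes were higher at an unadjusted p under 0.05 by limma, against 9.31% of all genes. Lox, which crosslinks elastin and collagen, read 6.48 and 7.27 in untreated WT and 6.72 and 6.44 in untreated S105A hearts, against 11.91 and 9.24 with PE in WT and 10.59 and 8.79 in S105A. The difference was 3.40 (SE 0.64, limma adjusted p = 0.275), with no overlap of treated and untreated arrays. Loxl3 differed by 1.63 (SE 0.50) and Loxl1, the family member tied to elastin renewal, by 1.46 (SE 0.38), while Loxl4 was at 0.54 (SE 0.18).

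Of 5 microfibril scaffold and latent TGF-beta binding genes, 5 lay higher (44.0% of all genes). An unadjusted p under 0.05 by limma was found in 2 of them, against 9.31% of all genes in the higher direction. Ltbp2, whose product binds fibrillin without holding latent TGF-beta, differed by 2.43 (SE 0.66), Fbn2, the fibrillin prominent in development, by 0.99 (SE 0.40), and Ltbp3 by 0.75 (SE 0.35). Ltbp1 and Ltbp4 were at 0.07 (SE 0.06) and 0.15 (SE 0.12). Among 7 ADAMTS family genes of the microfibril, 2 were higher at an unadjusted p under 0.05, where 9.31% of all genes were. They were Adamtsl5 (0.47, SE 0.13) and Adamtsl2 (0.94, SE 0.35), with Adamts10 next at 0.43 (SE 0.18). The remaining fibulin and EMILIN family genes lay lower in 4 of 5, with a median of -0.13, where 44.0% of all genes lay above 0. At an unadjusted p under 0.05 by limma, 0 of the 5 were lower, against 7.44% of all genes. Fbln7 was at 0.24 (SE 0.09), the only 1 of the 5 with an unadjusted p under 0.05, while Emilin2 was at -0.32 (SE 0.18) and Hmcn1 at -0.19 (SE 0.12).

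Proteases that cut elastin were divided. Ctsk (1.50, SE 0.40) and Ctss (1.40, SE 0.26), lysosomal cathepsins with elastase activity, and the gelatinase gene Mmp2 (1.03, SE 0.22) were the 3 of 8 with an unadjusted p under 0.05. In the higher direction 9.31% of all genes reached this threshold by limma. The macrophage elastase Mmp12 (-0.01, SE 0.10), Mmp9 (-0.21, SE 0.18) and neutrophil elastase gene Elane (-0.04, SE 0.06) lay near or below 0. All 6 elastic fibre receptor genes lay higher (44.0% of all genes) and 4 had an unadjusted p under 0.05 (9.31% in this direction). Among these 4 were the integrin subunits Itgb5 (0.89, SE 0.28), Itgav (0.66, SE 0.25) and Itga4 (0.40, SE 0.15).

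**Figure D4:**
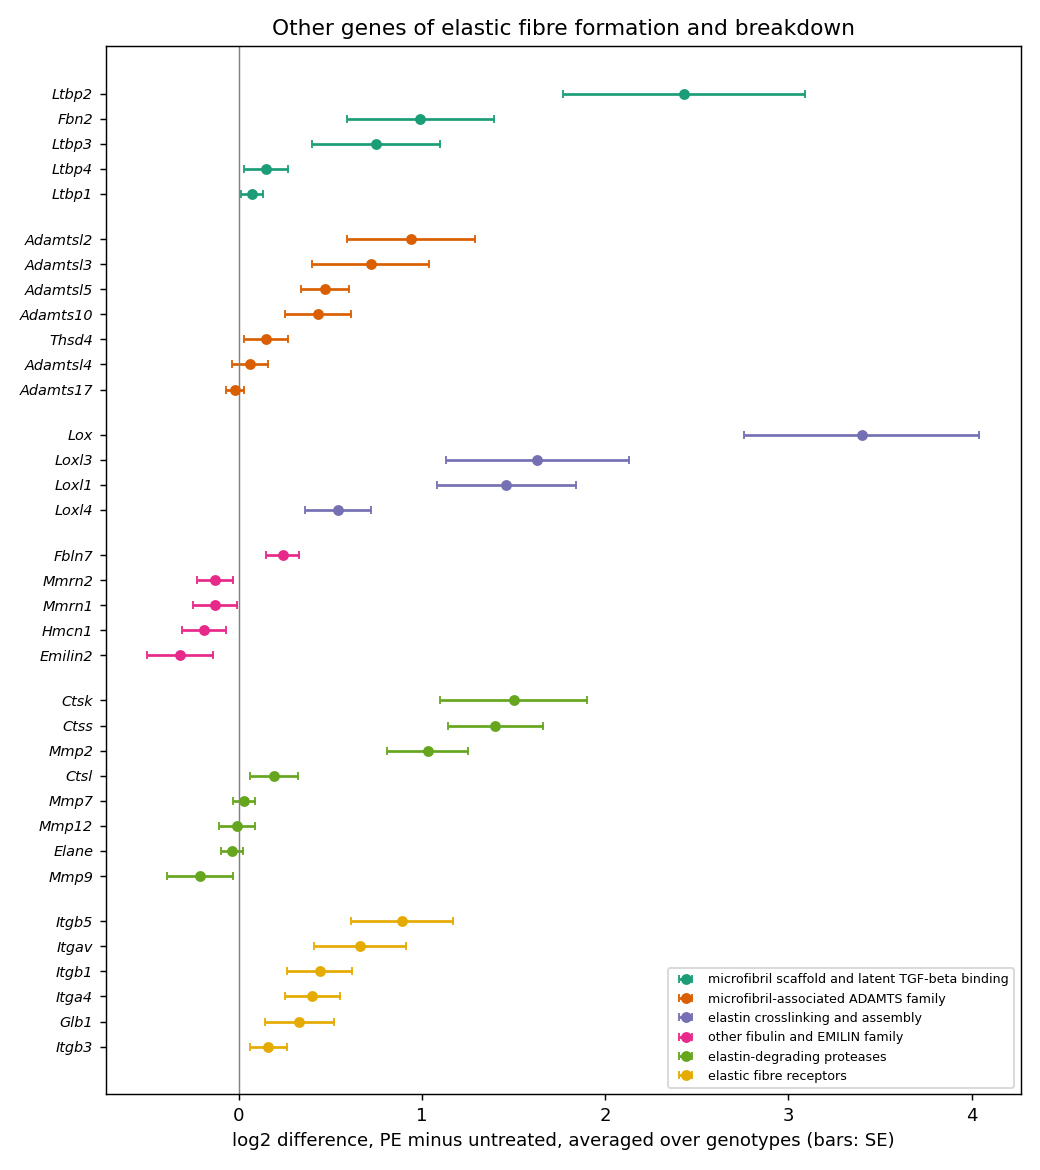
Log2 difference between PE and untreated hearts averaged over genotypes (horizontal axis, bars are SE) for 35 other genes of elastic fibre formation and breakdown, coloured by list. Lox stands farthest to the right at 3.40, followed by Ltbp2 at 2.43, and 4 of the 5 other fibulin and EMILIN family genes lie left of 0.

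Beyond the 9 genes, those most alike in pattern were sought among 1746 genes with a range of at least 1 log2 unit over the 8 arrays. Genes of the pathway and marker lists were not excluded. The measure was Pearson's r with the mean centred profile of the 9 genes over all 8 arrays. The 5 highest were Col14a1 (0.997), Fstl1 (0.994), Col8a1 (0.994), Col5a2 (0.993) and Col1a2 (0.993), which are 4 collagen chain genes and a secreted follistatin-like glycoprotein. Without arrays 3 and 7, which lay farthest out, r was 0.961 to 0.980 for them, and Spearman's rho over all 8 arrays was 0.762 to 0.905. The arrays share their group and whatever set arrays 3 and 7 apart, so r is a description and carries no p. Col14a1 read 7.60 and 7.52 in WT and 7.50 and 7.47 in S105A without PE, and 10.72, 8.64, 10.02 and 8.63 on PE arrays 3, 4, 7 and 8.

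Marker levels of several cell types also differed with PE. The counts of markers higher or lower stand against 44.0% of all genes with a difference above 0. In whole tissue, more cells of a type and more RNA per cell cannot be told apart. The mean of 9 fibroblast markers was 9.46 to 9.67 on untreated and 10.03 to 10.50 on PE arrays, with 8 of 9 markers higher, from -0.64 for Gsn to 2.38 for Col1a1. Pdgfra, the receptor that defines cardiac fibroblasts, differed by 0.36 (SE 0.09), and Tcf21, their transcription factor, by 0.18 (SE 0.18). All 5 macrophage markers lay higher, and their mean was 8.10 to 8.45 on untreated and 8.70 to 9.68 on PE arrays. Smooth muscle markers had a mean of 8.58 to 8.77 untreated and 8.71 to 9.44 with PE, with 3 of 6 higher. Of these, Cnn1 (1.41, SE 0.58) and Tagln (0.77, SE 0.32) lay higher, whereas Myh11, the myosin of mature smooth muscle, was at -0.17 (SE 0.13) and Acta2 at 0.05 (SE 0.10). Endothelial markers had a mean of 10.02 to 10.28 untreated and 9.66 to 10.10 with PE, and 4 of 5 lay lower. Cardiomyocyte markers had a mean of 13.40 to 13.45 untreated and 13.17 to 13.42 with PE, and 4 of 6 lay lower. Both means were lowest on array 3. All PE arrays lay below all untreated arrays in 0 of these 5 and 2 of these 6, against 6.15% of all genes. Both erythroid markers measured lay lower with PE, with a mean of 7.44 to 7.99 untreated and 6.45 to 7.17 with PE. The means of 4 atrial (7.35 to 7.63 and 7.77 to 8.23), 4 mesothelial (6.54 to 6.82 and 6.42 to 6.64) and 3 adipocyte markers (5.69 to 5.82 and 5.74 to 5.83) are those of untreated and PE arrays, and 2 of the 4 atrial markers lay higher, Nppa, which ventricles express under stress (2.28, SE 0.28), and Myl4 (0.29, SE 0.11; 0.50, SE 0.16, in S105A alone). The part of these cell types in the differences of the elastic fibre genes was not tested.

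**Figure D5:**
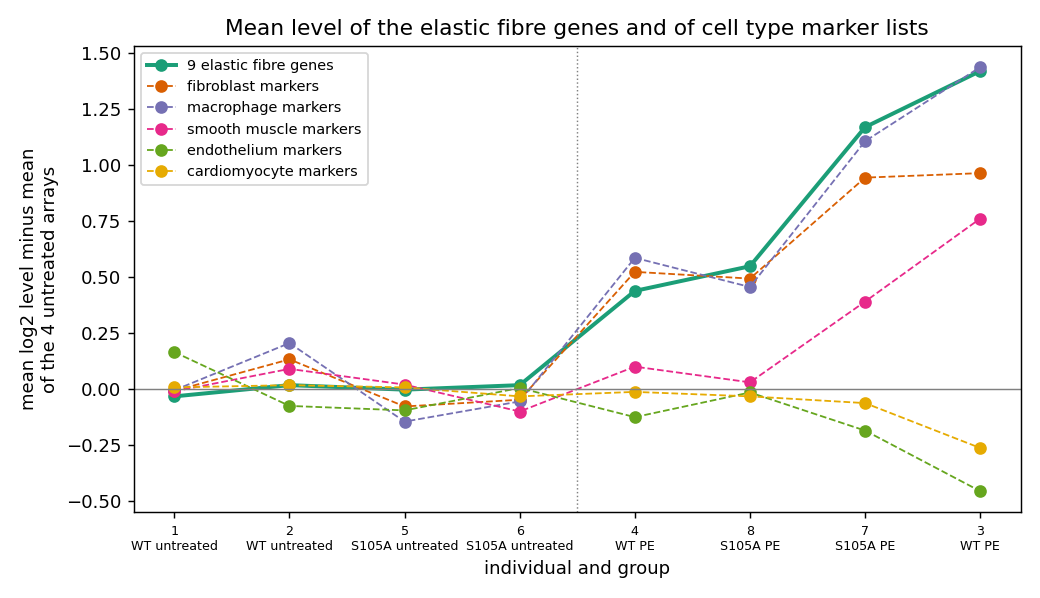
Mean log2 level of the 9 elastic fibre genes and of cell type marker lists on each array, minus the mean of the 4 untreated arrays (vertical axis), with untreated arrays left of the dotted line. The elastic fibre and macrophage lists are highest on array 3, the fibroblast list is nearly as high on array 7 as on array 3, and the endothelial and cardiomyocyte lists are lowest on array 3.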

How the data were processed

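The table deposited by the authors holds log2 expression per probe set. The submitters' processing notes name RMA without a version, and a genome build is not given in the sources used. RMA aligns the arrays' intensity distributions, which would remove a change shared by most genes. The table held 35557 rows. The platform annotation gave 21789 probe sets 1 gene symbol, 1621 several and 12147 none; of the first kind, the probe set with the highest mean was taken per gene, leaving 19938 genes, 19855 of them with an Entrez identifier in the RefSeq gene table of GRCm38.p6. All 9 genes lay above the 40% of genes with the lowest mean.

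Groups came from the titles, which number 8 individuals. All 8 arrays entered 1 linear model of group means (limma 3.58.1, R 4.3.3; eBayes; 4 residual degrees of freedom, prior 2.74). P values are two-sided, adjusted by Benjamini-Hochberg over all genes within each of 7 contrasts at 0.05; "unadjusted" p are the same before adjustment. Differences are log2, PE minus untreated or S105A minus WT. Named genes were the 9 members, up to 3 per pathway list with the smallest p, the 5 most alike in pattern, and, chosen after their values were seen, further list and marker genes given as contrast. Members and lists were chosen with earlier results of these data known. The code of the fit was run on simulated data with independent noise on each array. In the real data arrays 3 and 7 stood apart together, so that run does not vouch for the fit on these arrays. Figures used matplotlib 3.10.9. Alternatives are given in the closing section.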

Additional observations from a re-analysis of the deposited data

How the results depend on the processing

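No paired analysis was possible because the individuals are numbered 1 to 8 and the groups share no number. In S105A hearts none of the 9 genes' PE differences changed sign under any of the 16 alternatives. PE and untreated arrays of S105A did not overlap for any of the 9, so leaving out arrays could not change a sign there. In the comparisons each was run for, settings other than leaving out arrays changed no sign and no adjusted call of the 9 genes. The fit of only the 4 arrays compared was run for the 4 comparisons of 2 groups. Each of the 9 was read by 1 probe set. Dropping low genes, averaging probe sets, testing all rows, another variance model or fitting only 4 arrays therefore could not alter their log2 differences. For those settings only the adjusted call was open. Counts of the 9 at an unadjusted p under 0.05 did move. With array weights they rose for PE in WT, in S105A and averaged. With only the 4 arrays compared they fell for PE in WT and rose for PE in S105A and for genotype without PE. Quantile normalization lowered the count for PE in S105A. The share of all genes at this threshold was not counted in these fits.

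The number of genes past the adjusted threshold depended mostly on the arrays kept. When single arrays were dropped in turn, the test called 0 to 4137 genes for the averaged PE effect, 0 to 3541 in WT, 0 to 1 in S105A, 0 to 7 for the interaction, 0 to 3 for genotype without PE, 0 to 711 with PE and 0 to 225 averaged. Without individuals 3 and 7 the counts in the same order were 137, 58, 30, 1, 4, 5 and 22. Array weights gave 2 for PE in WT, 1 in S105A, 6 for genotype without PE and 6 averaged. Testing all rows gave 0 for PE in WT and 0 for the averaged genotype effect, and fitting only the 4 arrays compared gave 0 for PE in WT and 4 for genotype without PE. For the latter, averaging probe sets per gene gave 1 and a trended and robust variance 1. Why these counts changed was not tested.

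The median over the 9 genes ran, without 1 array, from 0.33 to 1.83 for PE in WT, 0.41 to 1.15 in S105A, -0.86 to 0.39 for the interaction and -0.94 to 0.41 for genotype under PE. Without individuals 3 and 7 it was 0.42 for the averaged PE effect and 0.33 in WT.

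Signs of single genes that changed when 1 array was left out are given as ranges. For PE, Fbln1 ran from -0.02 to 0.23 averaged and from -0.41 to 0.10 in WT, and Efemp1 from -1.60 to 0.28 in WT. For the interaction, Mfap2 ran from -0.51 to 0.36, Mfap4 -1.22 to 1.19, Mfap5 -0.86 to 1.04, Efemp1 -0.95 to 0.93, Eln -1.16 to 0.39, Emilin1 -1.13 to 0.06, Fbln5 -1.54 to 0.54 and Fbln2 -0.54 to 0.78. For genotype without PE, Mfap2 ran from -0.04 to 0.16, Eln -0.06 to 0.11, Mfap5 -0.20 to 0.05, Emilin1 -0.04 to 0.32, Fbln1 -0.24 to 0.01 and Fbln2 -0.01 to 0.05. For genotype under PE, Mfap2 ran from -0.45 to 0.42, Mfap4 -1.32 to 1.08, Eln -1.14 to 0.41, Emilin1 -0.99 to 0.20, Fbln5 -1.75 to 0.33, Efemp1 -0.53 to 1.35, Mfap5 -0.94 to 0.96 and Fbln2 -0.52 to 0.80. Averaged over treatments, Mfap2 ran from -0.19 to 0.24, Mfap5 -0.51 to 0.44, Mfap4 -0.72 to 0.49, Eln -0.56 to 0.22, Emilin1 -0.42 to 0.17, Fbln5 -0.98 to 0.06, Efemp1 -0.05 to 0.89 and Fbln2 -0.25 to 0.41.

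Without individuals 3 and 7, Fbln1 (0.10) and Efemp1 (0.28) changed sign for PE in WT. So did Mfap2 (0.05), Mfap4 (0.65) and Fbln5 (0.27) for the interaction, Mfap2 (0.11), Mfap4 (0.54), Eln (0.01), Fbln5 (0.06) and Efemp1 (-0.38) for genotype under PE, and Mfap5 (0.12), Mfap4 (0.22) and Eln (0.02) for the averaged genotype effect. The cause was not tested.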
